A study of Saccharomyces cerevisiae with 12 samples.

Results

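Transcript levels of Saccharomyces cerevisiae, budding yeast, grown with 0.25% glucose were compared with those of yeast grown with 1% glucose, a 4-fold difference in the supplied sugar. The arrays were chosen by the glucose level in their titles, which gave 3 arrays at 0.25% and 3 at 1%, or 6 of the 12 arrays of the series; the other arrays are 3 at 0.5% and 3 at 2%. The series design calls the arrays of a level biological replicates. Per the labels, total RNA was extracted with a Trizol reagent, labelled with biotin and read on one-colour Affymetrix arrays. The titles also hold the word log, which no label explains, and neither the strain nor the phase of growth at sampling is given in the sources used here. Both groups therefore differ, as far as the labels say, in glucose alone. The p-values rest on the spread between arrays of the same level, pooled over all 12 arrays and not taken from the 6 compared arrays alone.

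Budding yeast senses sugar outside the cell with the membrane sensors Snf3 and Rgt2; without their signal, Mth1 and Std1 let the repressor Rgt1 keep the genes of hexose transporters shut. Inside the cell, glucose holds the Snf1 protein kinase in check and lets Mig1 and its relatives repress genes for other sugars, respiration and gluconeogenesis, the making of sugar from other carbon sources. Low-affinity carriers such as Hxt1 are made when sugar is plentiful, and high-affinity carriers when it is scarce.

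All 5449 yeast genes with a signal above 0 on at least 1 array and a listed name were tested. On all 12 arrays the trimmed mean signal was 500. Log2 signals correlated across genes with r from 0.9848 to 0.9887 among the 0.25% arrays, from 0.9846 to 0.9877 among the 1% arrays and from 0.9806 to 0.9885 between both sets; genes are not independent replicates. Over 8 yeast control genes, 3' signal exceeded 5' signal, a measure of RNA integrity, by a log2 ratio of 0.61 ± 0.07 at 0.25% and 0.56 ± 0.07 at 1% (SD, n = 3 each), so the groups overlapped in it; at 2% it was 1.16 ± 0.26. The 16 ribosomal RNA probe sets averaged 8.82 ± 0.77 at 0.25%, 8.85 ± 0.75 at 1% and 7.66 ± 0.98 at 2% on the log2 scale. The 6 a-type mating genes had mean signals from 619 to 2265 at 0.25% and from 638 to 2361 at 1%, and the 4 alpha-type genes from 5.27 to 69.7 at 0.25% and from 2.79 to 67.2 at 1%; none of these 10 genes passed the test below.

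At 0.25% glucose 43 genes were higher and 9 were lower than at 1%. The largest fall was that of the low-affinity hexose carrier HXT1, and the largest rise that of TMA10, a ribosome-associated protein of stress conditions. Some regulators of sugar use, the hexokinase HXK1, and some glycogen enzymes and stress genes were among the other rises. The test was limma's moderated test of the log2 signal in a fit over all 12 arrays, two-sided, with a Benjamini-Hochberg adjusted p under 0.05. By it 52 genes were called (0.954% of those tested), 43 of them higher (0.789%) and 9 lower (0.165%). The 3 arrays of one level lay entirely above or below those of the other for all 52, as they did for 649 of the 5449 genes (11.9%).

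The change was at least 2-fold for 20 of the called genes, 15 higher and 5 lower, and 1.5-fold or less for 14. The median log2 difference of all genes was 0.01, and the median standard error 0.12. At an unadjusted p under 0.05 there were 405 genes. Replicate numbers in the titles also paired the arrays, and with that number as a block 120 genes passed (2.2%), 96 of them higher (1.76%) and 24 lower (0.44%), with all 52 among them. Of the 52 genes, 13 had a mean log2 signal of 6.78 or less over the 12 arrays (a signal of 110), the lowest 25% of all genes. Such genes are called dim below.

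**Figure D1:**
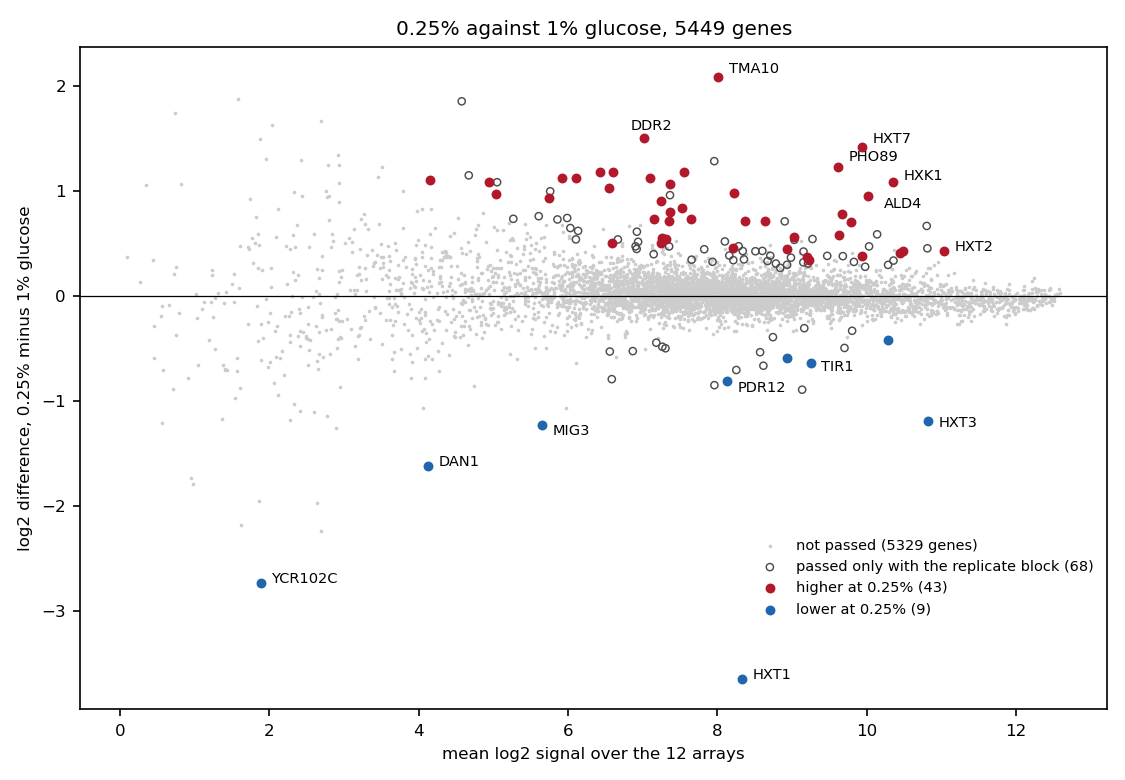
Log2 difference, 0.25% minus 1% glucose (vertical axis), against the mean log2 signal over the 12 arrays (horizontal axis), 1 point a gene. Red points passed as higher at 0.25% (43 genes), blue points passed as lower (9 genes) and open circles passed only with the replicate block; HXT1 lies lowest at -3.64 and TMA10 highest among the called genes at 2.09.

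The hexose transporters moved in opposite directions: 2 of 15 tested members were lower at 0.25%, 2 were higher and 11 did not pass, with a list median of -0.21 against 0.01 for all genes. Counts in this and every later list stand beside 0.789% of all genes called higher and 0.165% called lower. With the block these shares were 1.76% and 0.44%. HXT1, the low-affinity carrier of high sugar, had signals of 73.6, 55.7 and 49.5 on the 0.25% arrays, against 932, 655 and 650 on the 1% arrays. Every 0.25% array was thus far below every 1% array, and HXT1 was 12.5-fold lower at 0.25% (log2 -3.64, SE 0.15, adjusted p = 1.97e-09). HXT3, another low-affinity carrier, had signals of 1264, 1006 and 917 at 0.25% and 2500, 2370 and 2337 at 1%. Its groups did not overlap either, and it fell 2.28-fold (log2 -1.19, SE 0.10, adjusted p = 1.78e-05).

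The probe set of HXT7, a high-affinity carrier, read 2292, 2231 and 2303 at 0.25%, against 943, 839 and 780 at 1%. All 3 arrays at 0.25% exceeded all 3 at 1%, by 2.67-fold (log2 1.42, SE 0.10, adjusted p = 2.35e-06). This probe set is of a type shared by similar transcripts and HXT6, a near-identical neighbour, has none of its own here, so the signals of HXT6 and HXT7 cannot be told apart. HXT2, a carrier of high affinity induced by low sugar, had 2836, 2787 and 2922 at 0.25% and 2204, 2086 and 2050 at 1%. That small difference was still outside the spread of the arrays (log2 0.43, SE 0.08, adjusted p = 0.0149). The HXT2 call was lost without replicate 1 or 3 at 0.25% or replicate 2 or 3 at 1%, with adjusted p from 0.0509 to 0.0813, and under median scaling (0.0842).

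HXT4, a carrier of intermediate affinity, had 1129, 617 and 701 at 0.25% and 654, 424 and 399 at 1%. Replicate 1 was the brightest array of each level, so the groups overlapped, and the log2 difference of 0.71 passed only with the replicate block (adjusted p = 0.0229, against 0.195 without it). HXT5, a carrier of slow growth and poor media, was dim, with 37.0, 58.4 and 36.2 at 0.25% and 25.7, 20.1 and 13.8 at 1%. Its groups did not overlap, yet the difference of 1.15 also passed only with the block (adjusted p = 0.0152, against 0.128). The remaining 9 transporters of the list passed in neither fit.

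Among 8 genes of the glucose sensors and their transporter regulators, 1 rose, none fell and 7 did not pass, with a median of 0.06. The gene that rose was MTH1, the corepressor of Rgt1, dim over the series, with 275, 144 and 188 at 0.25% and 122, 79.1 and 65.9 at 1%. Replicate 1 was highest at both levels, and the lowest 0.25% array was still above the highest 1% array (log2 1.18, SE 0.23, adjusted p = 0.0193). Without replicate 1 or 3 at 0.25% or replicate 2 or 3 at 1% the MTH1 call was lost, with adjusted p from 0.0813 to 0.127. Its paralogue STD1 had mean signals of 228 ± 4.17 at 0.25% and 280 ± 31.2 at 1% (log2 -0.29, adjusted p = 0.491).

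The sensor genes differed less. SNF3, the sensor of low sugar, averaged 151 ± 23.0 at 0.25% and 110 ± 11.8 at 1%, a log2 difference of 0.45 that passed only with the block (adjusted p = 0.0339, against 0.200). RGT2, the sensor of high sugar, averaged 93.4 ± 10.4 at 0.25% and 93.3 ± 9.11 at 1%. RGT1, the repressor itself, averaged 251 ± 14.6 and 243 ± 23.1 at 0.25% and 1% (log2 0.05, SE 0.10). The differences of RGT2 and RGT1 thus lay within the spread of their arrays.

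Of 18 genes of the glucose repressors and the Snf1 kinase, 1 fell and 17 did not pass; the median of 0.03 changed sign under quantile and median scaling. The gene that fell was MIG3, a zinc finger repressor related to Mig1, dim, with 36.5, 19.9 and 26.5 at 0.25% and 79.5, 62.0 and 49.5 at 1%. Its arrays did not overlap and it fell 2.33-fold (log2 -1.22, SE 0.25, adjusted p = 0.0251), but without replicate 2 or 3 at 0.25% or replicate 1 or 2 at 1% its adjusted p was between 0.0968 and 0.126. MIG2, the other relative, had 261, 244 and 191 at 0.25% and 568, 353 and 260 at 1%. Here the lowest 1% array fell just short of the highest 0.25% array, while within each replicate number the 0.25% array was the lower; the log2 difference of -0.70 passed with the block (adjusted p = 0.0014) and not without it (0.411).

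MIG1, the main glucose repressor, averaged 439 ± 88.7 at 0.25% and 429 ± 41.9 at 1%, and NRG1, a repressor of starch and filamentation genes, was dim with a log2 difference of 0.18 (SE 0.28). The log2 differences of the kinase subunits were small: SNF1, its catalytic subunit, differed by 0.06 (SE 0.09), SNF4, the activating subunit, by 0.01 (SE 0.09), GAL83 by -0.02 (SE 0.10) and SIP2 by 0.29 (SE 0.15). REG1, which directs a phosphatase to the kinase, differed by 0.16 (SE 0.11). None of these passed in either fit.

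Of 13 activators of glucose-repressed genes 3 rose, none fell and 10 did not pass, with a median of 0.11; all 3 were dim. ADR1, the activator of alcohol dehydrogenase and peroxisomal genes, had 149, 150 and 210 at 0.25% and 75.1, 73.2 and 72.6 at 1%. The 1% arrays were close together and every 0.25% array was about 2-fold or more above them (2.28-fold, log2 1.19, SE 0.17, adjusted p = 0.00168). HAP4, the regulatory subunit of the activator of respiratory genes, had 146, 114 and 190 at 0.25% and 66.1, 71.1 and 78.5 at 1%. It was higher on every 0.25% array (log2 1.03, SE 0.19, adjusted p = 0.0149), and lost its call without replicate 1 or 3 at 0.25% or replicate 1 or 2 at 1% (adjusted p from 0.0509 to 0.0813).

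CAT8, the activator of gluconeogenic genes, had 49.5, 55.2 and 57.5 at 0.25% and 25.4, 27.8 and 23.4 at 1%. Its groups were well apart (log2 1.08, SE 0.23, adjusted p = 0.0389), but the call was near the threshold and was lost without any single array of the 0.25%, 0.5% or 1% levels, with adjusted p from 0.057 to 0.162. SIP4, another activator of gluconeogenic genes and dim at both levels, differed by -0.06 (SE 0.50). The stress activators MSN2 and MSN4 differed by 0.11 (SE 0.10) and 0.58 (SE 0.23, adjusted p = 0.491), MSN4 being dim.

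**Figure D2:**
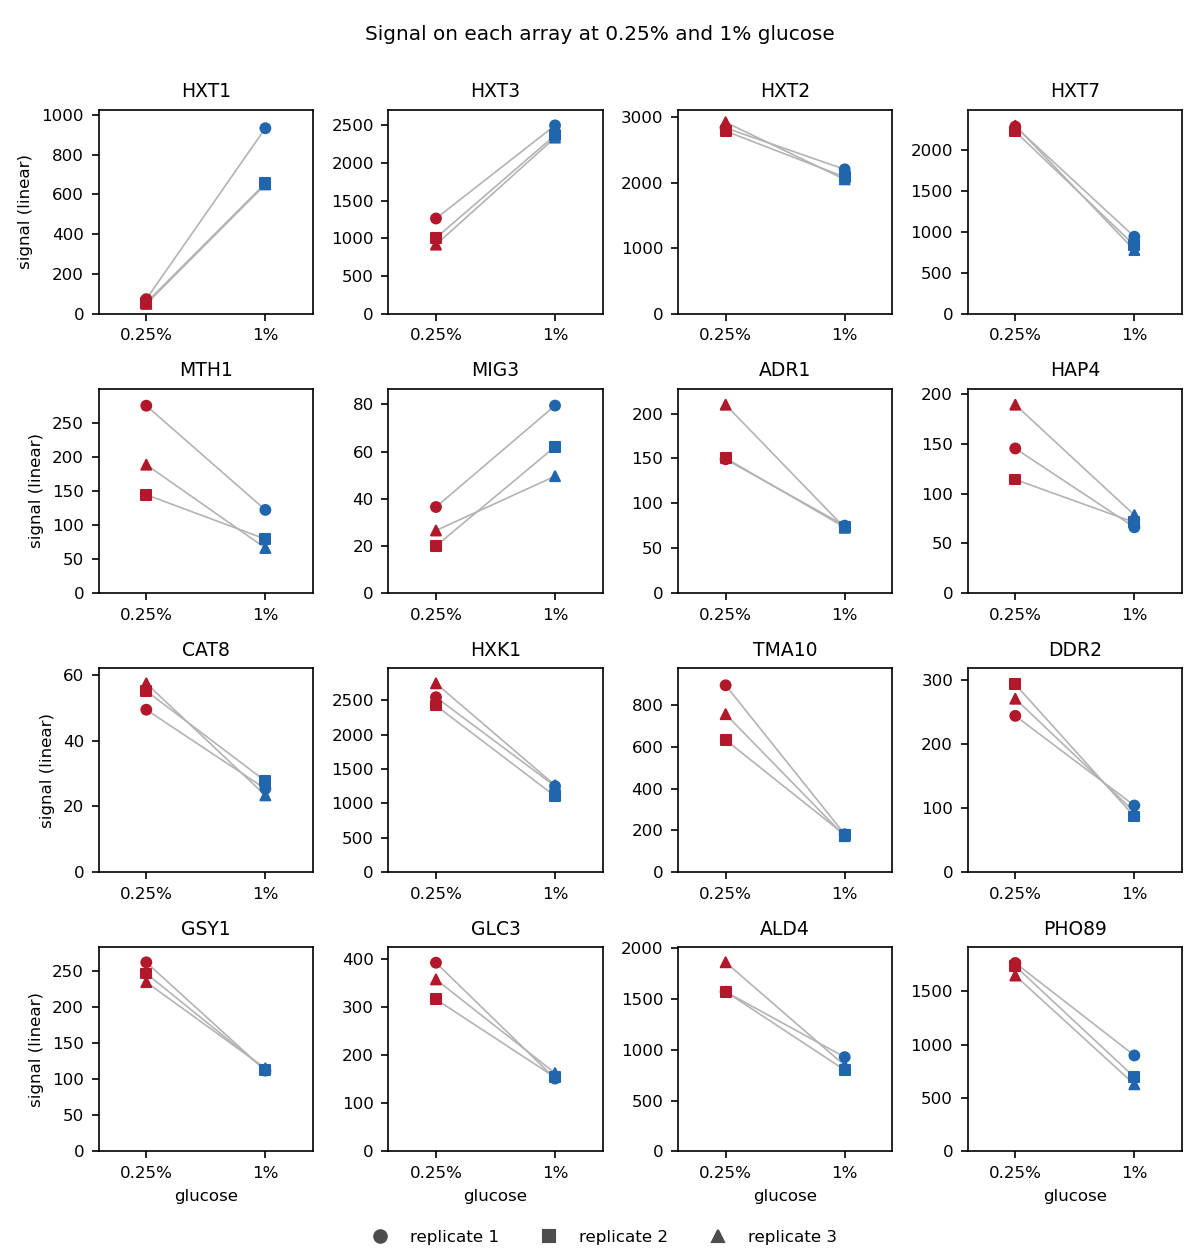
Signal (linear scale, vertical axis) of 16 genes on the 3 arrays at 0.25% glucose (red) and the 3 at 1% (blue), with a marker for each replicate number and grey lines joining equal numbers. HXT1, HXT3 and MIG3 are lower on every 0.25% array, and the other 13 genes are higher on every 0.25% array.

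Of the 4 genes for hexose phosphorylation 2 rose, 2 did not pass, and the median was 0.58. HXK1, the hexokinase of derepressed cells, had 2544, 2422 and 2745 at 0.25% and 1251, 1105 and 1263 at 1%. The 3 arrays at 0.25% were all above those at 1% (2.13-fold, log2 1.09, SE 0.11, adjusted p = 6.1e-05). EMI2, a paralogue of glucokinase, averaged 718 ± 53.1 at 0.25% and 485 ± 5.93 at 1% (log2 0.56, SE 0.11, adjusted p = 0.0179). The EMI2 call was lost without replicate 1 or 3 at 0.25% or any array at 1%, with adjusted p from 0.0536 to 0.0837. GLK1, glucokinase, averaged 1563 ± 148 at 0.25% and 1037 ± 86.1 at 1%, and its difference of 0.59 passed with the block (adjusted p = 0.00381) and not without it (0.0597). HXK2, the hexokinase of sugar-rich cells, averaged 3728 ± 222 at 0.25% and 3660 ± 525 at 1% (log2 0.04, SE 0.10), within the spread of its arrays.

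Genes for other sugars were mostly dim, 9 of 11, and 1 rose. That was MAL33, a maltose activator, with 166, 103 and 135 at 0.25% and 77.2, 54.0 and 53.2 at 1%. Every 0.25% array exceeded every 1% array (log2 1.13, SE 0.19, adjusted p = 0.00739), and leaving out replicate 2 at 1% ended the call (adjusted p = 0.0648). SUC2, invertase, had 388, 368 and 550 at 0.25% and 284, 328 and 344 at 1%. Those groups were close but did not overlap, and the difference of 0.43 passed only with the block (adjusted p = 0.0344, against 0.454).

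Genes for the use of ethanol, acetate, lactate and glycerol numbered 16, of which 2 rose, none fell and 14 did not pass (median 0.30). ALD4, the mitochondrial aldehyde dehydrogenase, had 1571, 1572 and 1861 at 0.25% and 927, 800 and 845 at 1%. It was higher on every 0.25% array (1.94-fold, log2 0.96, SE 0.09, adjusted p = 1.98e-05). GUT2, the mitochondrial glycerol 3-phosphate dehydrogenase, averaged 255 ± 16.8 at 0.25% and 146 ± 13.9 at 1% (log2 0.81, SE 0.11, adjusted p = 0.00153). ADH2, the alcohol dehydrogenase that consumes ethanol, was dim and averaged 77.2 ± 6.62 at 0.25% and 47.1 ± 10.8 at 1%. Its difference of 0.73 passed with the block (adjusted p = 0.0405) and missed the threshold without it (0.0754).

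Gluconeogenesis and the glyoxylate cycle, which need Cat8, had 16 genes, 9 of them dim: 1 rose, none fell and 15 did not pass (median 0.29). The gene that rose was ODC1, a mitochondrial 2-oxodicarboxylate carrier, at 190 ± 18.9 and 133 ± 9.72 at 0.25% and 1% (log2 0.51, SE 0.11, adjusted p = 0.0481). This call was at the edge of the threshold: it was lost without any single array of the 0.25%, 0.5% or 1% levels, or replicate 3 at 2%, with adjusted p from 0.0515 to 0.263. MDH2, the cytosolic malate dehydrogenase, averaged 974 ± 112 at 0.25% and 747 ± 82.5 at 1% and passed with the block (log2 0.38, adjusted p = 0.0111, against 0.165), as did the dim REG2, a phosphatase regulator (log2 0.76, adjusted p = 0.0278, against 0.225). Several other enzymes of the pathway were dim. FBP1, fructose-1,6-bisphosphatase, had 10.3, 11.8 and 6.59 at 0.25% and 5.56, 9.90 and 2.04 at 1%, which overlapped (log2 0.95, SE 0.55, adjusted p = 0.884). PCK1, phosphoenolpyruvate carboxykinase, averaged 35.7 ± 7.40 at 0.25% and 28.7 ± 0.0658 at 1%, and ICL1, isocitrate lyase, 33.4 ± 6.83 at 0.25% and 37.5 ± 5.44 at 1%. JEN1, the lactate carrier, and MLS1, malate synthase, also overlapped between the levels, with log2 differences of 0.35 (SE 0.29) and 0.15 (SE 0.92).

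In the respiratory chain 3 of 23 genes rose and 20 did not pass; all 23 log2 differences were above 0, with a median of 0.29 and a range from 0.06 to 0.59, while 55% of all genes were above 0. The same 23 were above 0 after quantile normalization and median scaling. NDE1, the external NADH dehydrogenase, had 1140, 1008 and 1186 at 0.25% and 778, 701 and 740 at 1%. Its arrays were clearly apart (log2 0.59, SE 0.10, adjusted p = 0.00739), and it missed the threshold without replicate 2 at 1% (0.065). QCR9 and COR1, subunits of the cytochrome bc1 complex, differed by 0.37 (SE 0.08, adjusted p = 0.0389) and 0.35 (SE 0.08, adjusted p = 0.0494). QCR9 was lost without any single array at 0.25% or 0.5%, or replicate 2 or 3 at 1%, with adjusted p up to 0.244, and COR1 without any single array at 0.25%, 0.5% or 1%, or replicate 1 at 2%, with adjusted p up to 0.264; COR1 was also lost under quantile normalization (0.119) and median scaling (0.194). CYC1, cytochrome c, averaged 671 ± 51.3 at 0.25% and 538 ± 60.4 at 1% and passed with the block (log2 0.32, adjusted p = 0.025, against 0.252), as did QCR7, a subunit of the bc1 complex (log2 0.30, adjusted p = 0.0227, against 0.365).

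ATP synthase had 17 genes, of which 1 rose and 16 did not pass; all 17 differences were above 0 (median 0.22), also under both scalings. The gene that rose encodes an inhibitor of the enzyme rather than a subunit: INH1 had 283, 283 and 270 at 0.25% and 178, 158 and 135 at 1%. The groups were far apart relative to their spread (log2 0.84, SE 0.16, adjusted p = 0.0181). The INH1 call was lost without any single array at 0.25%, or replicate 2 or 3 at 1%, with adjusted p from 0.0612 to 0.0919. With the block ATP7 and ATP19, subunits, and STF2, a factor that stabilises the inhibited enzyme, passed too, at 0.34 (adjusted p = 0.0137), 0.37 (adjusted p = 0.0276) and 0.55 (adjusted p = 0.00193).

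In the TCA cycle and pyruvate dehydrogenase 2 of 22 genes rose and 20 did not pass (median 0.12). MDH1, the mitochondrial malate dehydrogenase, averaged 1198 ± 62.2 at 0.25% and 914 ± 11.6 at 1% (log2 0.39, SE 0.07, adjusted p = 0.0183). It was lost without replicate 2 or 3 of either level, with adjusted p from 0.0612 to 0.098, and under median scaling (0.0818). SDH1, the flavoprotein of succinate dehydrogenase, averaged 382 ± 24.7 at 0.25% and 279 ± 21.5 at 1% (log2 0.46, SE 0.10, adjusted p = 0.0485), and its call was lost without any single array at 0.25%, 0.5% or 1%, or replicate 3 at 2%, with adjusted p up to 0.281, and under quantile normalization (0.0552) and median scaling (0.0504). CIT1, citrate synthase, averaged 1347 ± 64.8 at 0.25% and 969 ± 61.4 at 1% and passed with the block (log2 0.48, adjusted p = 0.00381, against 0.0593), as did SDH3, a membrane subunit of succinate dehydrogenase (log2 0.33, adjusted p = 0.0426, against 0.247). The 73 mitochondrial ribosomal proteins were all above 0 in the deposited values, 71 of them after quantile normalization and 72 after median scaling, with a median of 0.16. None of the 73 passed, with 0.954% called over all genes. With the block 1 did, MRPL28 (log2 0.27, adjusted p = 0.0484), against 2.2% of all genes. NDI1, the internal NADH dehydrogenase, was dim and did not pass (log2 0.48, adjusted p = 0.525).

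Glycolysis and fermentation had no called gene in either fit. Over all genes 0.954% were called, and 2.2% with the block, so 0 calls in lists of this size is close to that share. The median was 0.0015 for 17 glycolytic genes, of either sign depending on the scaling, and -0.06 for 12 fermentation genes. The differences ran from -0.10 (PFK1, a phosphofructokinase subunit) to 0.37 (PYK2, the minor pyruvate kinase, adjusted p = 0.311) in glycolysis and from -0.17 to 0.21 in fermentation. At a median standard error of 0.12, differences of the size seen in the respiratory chain were at the edge of what 3 arrays a level could show.

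Reserve carbohydrate genes rose in part. In glycogen metabolism 4 of 16 genes were higher, none lower and 12 did not pass (median 0.39), beside 0.789% of all genes called higher. GLC3, the branching enzyme, had 392, 316 and 357 at 0.25% and 151, 154 and 163 at 1%. GSY1, the minor glycogen synthase, had 261, 246 and 234 at 0.25% and 112, 113 and 115 at 1%. In both genes the 1% arrays were nearly equal and the 0.25% arrays about 2-fold above them: the log2 difference was 1.18 for GLC3 (SE 0.15, adjusted p = 0.000691) and 1.13 for GSY1 (SE 0.11, adjusted p = 5.45e-05).

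GPH1, glycogen phosphorylase, which breaks the polymer down, rose beside the enzymes that make it, with 297, 285 and 331 at 0.25% and 139, 141 and 155 at 1%. Its arrays did not overlap (log2 1.07, SE 0.12, adjusted p = 0.000255). PGM2, phosphoglucomutase, averaged 211 ± 6.86 at 0.25% and 127 ± 11.8 at 1% (log2 0.74, SE 0.14, adjusted p = 0.0191); it was lost without any single array at 0.25%, or replicate 1 or 2 at 1%, with adjusted p from 0.0619 to 0.137. GSY2, the main glycogen synthase, averaged 468 ± 26.3 at 0.25% and 347 ± 10.4 at 1% and passed with the block (log2 0.43, adjusted p = 0.0229, against 0.122). IGD1, an inhibitor of the debranching enzyme that stood in none of the lists and is named here after its values were seen, had 123, 91.9 and 113 at 0.25% and 43.1, 49.7 and 57.3 at 1%. It was dim, and its groups did not overlap (log2 1.12, SE 0.17, adjusted p = 0.00292). GAC1, the glycogen-targeting subunit of a phosphatase, was dim and overlapped (log2 0.96, SE 0.79).

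Trehalose, the other reserve sugar, had no called gene among 7 (median 0.20), with 0.954% called over all genes. TSL1, a subunit of the trehalose synthase, had 339, 570 and 653 at 0.25% and 294, 395 and 448 at 1%. These overlapped, with replicate 3 highest and replicate 1 lowest at both levels, and the difference of 0.43 did not pass even with the block (adjusted p = 0.0969). NTH2, a neutral trehalase, was the exception in the paired fit (log2 0.33, adjusted p = 0.0344, against 0.317 without the block).

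The general stress response had 36 genes, 14 of them dim: 5 rose, none fell and 31 did not pass (median 0.29). Of all genes 0.789% rose. TMA10 had 895, 633 and 757 at 0.25% and 181, 179 and 172 at 1%. This was the largest rise called, 4.25-fold, with the lowest 0.25% array well above every 1% array (log2 2.09, SE 0.12, adjusted p = 9.63e-08). DDR2, a multistress protein, had 244, 293 and 271 at 0.25% and 104, 87.0 and 94.2 at 1%. It too was apart on all arrays (2.83-fold, log2 1.50, SE 0.15, adjusted p = 5.45e-05).

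HSP12, a small membrane-associated stress protein, had 428, 586 and 430 at 0.25% and 245, 255 and 223 at 1% (log2 0.99, SE 0.15, adjusted p = 0.00376), again with no overlap. PNC1, nicotinamidase, averaged 1645 ± 58.1 at 0.25% and 1239 ± 13.5 at 1% (log2 0.41, SE 0.07, adjusted p = 0.00821); the PNC1 call was lost under median scaling (adjusted p = 0.0726). SPI1, a cell wall protein of weak-acid resistance, averaged 206 ± 15.9 at 0.25% and 141 ± 22.5 at 1% (log2 0.56, SE 0.12, adjusted p = 0.0389). Its call was lost without any single array at 0.25% or 0.5%, or replicate 2 or 3 at 1%, with adjusted p from 0.057 to 0.25. The block added GAD1, glutamate decarboxylase, DCS2, a regulator of messenger decapping and dim, and PRB1, a vacuolar protease, at 0.40 (adjusted p = 0.0388, against 0.249), 0.62 (adjusted p = 0.0308, against 0.0866) and 0.45 (adjusted p = 0.0435, against 0.712).

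No heat shock chaperone of 20 passed in either fit (median -0.04), close to the 0.954% called over all genes and 2.2% with the block. HSP82, the inducible Hsp90, differed by -0.19 (SE 0.12). Of 26 antioxidant genes 1 rose, beside 0.789% of all genes. It was PRX1, the mitochondrial peroxiredoxin, at 615 ± 31.1 and 449 ± 11.7 at 0.25% and 1% (log2 0.45, SE 0.08, adjusted p = 0.0174). The PRX1 call was lost without replicate 1 or 2 at 0.25% or replicate 2 or 3 at 1%, with adjusted p from 0.0703 to 0.0788. In the cell wall list 1 of 32 rose, beside the same 0.789% of all genes. This was GSC2, a catalytic subunit of glucan synthase known from stress and spore walls, with 1225, 1329 and 1200 at 0.25% and 777, 776 and 640 at 1%. All its 0.25% arrays were above its 1% arrays (log2 0.78, SE 0.11, adjusted p = 0.00125). SLT2, the kinase of the cell wall pathway, passed with the block (log2 0.30, adjusted p = 0.0468, against 0.214).

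**Figure D3:**
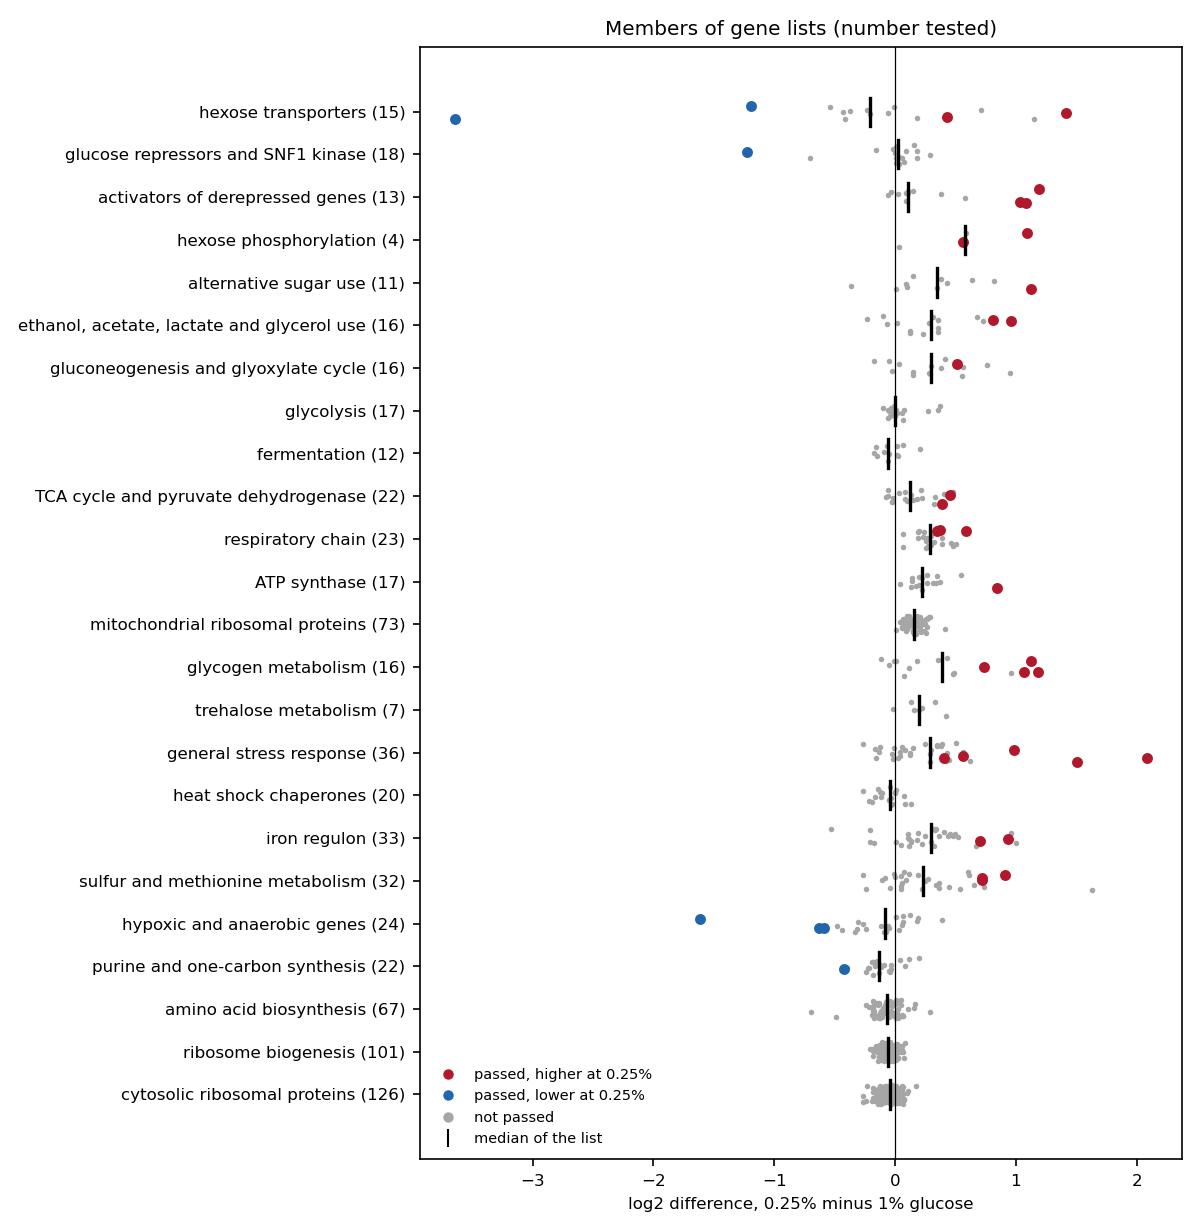
Log2 difference, 0.25% minus 1% glucose (horizontal axis), of the tested members of 24 gene lists, 1 point a gene and 1 row a list, with the number tested in brackets and a black bar at the list median. Red points passed as higher, blue points as lower and grey points did not pass. All members of the respiratory chain, ATP synthase and mitochondrial ribosomal protein lists lie above 0 in the deposited values (71 of 73 of the last list after quantile normalization). The called falls drawn here lie in the transporter, repressor, hypoxic and purine lists. The called falls of PDR12 and YCR102C are in none of the 24 lists.

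Several nutrient uptake genes differed. PHO89, a sodium-coupled phosphate carrier, had 1766, 1737 and 1648 at 0.25% and 899, 696 and 628 at 1%. All arrays at 0.25% were above those at 1% (2.34-fold, log2 1.23, SE 0.14, adjusted p = 0.00016). It was the only one of 27 phosphate regulon genes that rose, with none lower and a median of 0.04, so the other 26 did not pass; with the block PHO3, a secreted acid phosphatase, was lower (log2 -0.33, adjusted p = 0.0285, against 0.194).

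In the iron regulon 2 of 33 genes rose, none fell and 31 did not pass (median 0.29), and with the block 8 rose and 1 fell. Of all genes 0.789% rose, and with the block 1.76% rose and 0.44% fell. HMX1, heme oxygenase, was dim with 93.6, 67.5 and 74.3 at 0.25% and 45.2, 36.6 and 40.5 at 1%. SIT1, a siderophore carrier, had 1337, 1034 and 1374 at 0.25% and 698, 710 and 887 at 1%. Both were higher on every 0.25% array, by 0.94 for HMX1 (SE 0.18, adjusted p = 0.0191) and 0.70 for SIT1 (SE 0.14, adjusted p = 0.0251). HMX1 was lost without replicate 1 or 3 at 0.25% or replicate 2 or 3 at 1% (adjusted p from 0.0756 to 0.126), and SIT1 without replicate 1 or 3 at 0.25% or replicate 1 or 2 at 1% (adjusted p from 0.0943 to 0.168).

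Of the 31 iron genes not called, 6 passed as higher and 1 as lower with the block. FIT2, a cell wall mannoprotein that retains siderophores, had 2984, 1557 and 2599 at 0.25% and 1436, 1356 and 1540 at 1% (log2 0.67, adjusted p = 0.0383, against 0.12). TIS11, which destabilises messages of iron-using proteins, had 300, 145 and 403 at 0.25% and 102, 116 and 200 at 1%, so its groups overlapped (log2 0.96, adjusted p = 0.023, against 0.382). In both genes replicate 2 was the lowest 0.25% array. FET3, the multicopper oxidase of iron uptake, overlapped between the levels too (log2 0.46, adjusted p = 0.013, against 0.273). FIT1, the relative of FIT2, was dim and lower, at 71.6 ± 2.96 and 105 ± 20.2 at 0.25% and 1% (log2 -0.53, adjusted p = 0.0397 with the block, against 0.347).

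Sulfur and methionine metabolism had 32 genes, of which 3 rose, none fell and 29 did not pass (median 0.23), and with the block 7 rose. Of all genes 0.789% rose, and 1.76% with the block. MET2, homoserine acetyltransferase, had 176, 273 and 256 at 0.25% and 117, 116 and 135 at 1%. MMP1, the carrier of S-methylmethionine, had 478, 470 and 541 at 0.25% and 305, 328 and 272 at 1%. MHT1, the methyltransferase that uses this compound, had 238, 233 and 246 at 0.25% and 164, 120 and 157 at 1%. All 3 were higher on each 0.25% array than on any 1% array, by 0.91 for MET2 (SE 0.14, adjusted p = 0.00516), 0.72 for MMP1 (SE 0.12, adjusted p = 0.00715) and 0.72 for MHT1 (SE 0.13, adjusted p = 0.0117). Leaving out replicate 3 at 0.25% or replicate 2 at 1% ended the MHT1 call (adjusted p = 0.0625 and 0.0715).

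With the block MET14, MET16, MET32 and SUL2 passed as well, at 0.54, 0.62, 0.74 and 0.65, with adjusted p from 0.0174 to 0.0439. MET14 and MET16 are enzymes of sulfate assimilation, MET32 a transcription factor of the pathway and SUL2 a sulfate carrier. The largest difference in the list, that of MET17 at 1.63, came from signals of 5.57, 4.72 and 9.47 at 0.25% and 6.77, 1.23 and 0.165 at 1%, which overlapped and are too dim to rank (adjusted p = 0.483).

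The hypoxic and anaerobic genes held 3 of the 9 falls: of 24 members none rose, 3 fell and 21 did not pass (median -0.08), and with the block 6 fell. Of all genes 0.165% fell, and 0.44% with the block. TIR1, a cell wall mannoprotein of cold shock and anaerobic growth, had 492, 465 and 425 at 0.25% and 801, 736 and 615 at 1%. ANB1, the hypoxic form of translation factor eIF5A, had 402, 384 and 312 at 0.25% and 598, 538 and 505 at 1%. Each 0.25% array was below each 1% array in both genes, and replicate 1 was highest at both levels; the log2 difference was -0.63 for TIR1 (SE 0.10, adjusted p = 0.00418) and -0.59 for ANB1 (SE 0.11, adjusted p = 0.0191). The ANB1 call was lost without replicate 3 at 0.25% or replicate 1 or 2 at 1%, with adjusted p from 0.082 to 0.098.

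DAN1, another anaerobic mannoprotein, was dim, with 9.82, 8.70 and 6.32 at 0.25% and 27.4, 36.7 and 15.4 at 1%. It fell 3.06-fold with no overlap (log2 -1.61, SE 0.31, adjusted p = 0.0191), but the call was lost without replicate 2 or 3 at 0.25% or replicate 1 or 2 at 1% (adjusted p from 0.0529 to 0.146). The block added AAC3, the anaerobic ADP/ATP carrier, TIR3, a relative of TIR1, and HEM13, an oxygen-dependent heme enzyme, at -0.48 (adjusted p = 0.0484), -0.44 (adjusted p = 0.0435) and -0.30 (adjusted p = 0.0327).

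PDR12, the exporter of weak organic acids, had 171, 213 and 208 at 0.25% and 339, 345 and 349 at 1%. It was lower on every 0.25% array (log2 -0.81, SE 0.15, adjusted p = 0.0181), and lost its call without replicate 1 at 0.25% or replicate 2 or 3 at 1% (adjusted p from 0.0667 to 0.0935). In its list of 21 genes for drug and weak-acid export 1 fell and 1 rose. The gene that rose was SPI1, given above, a cell wall protein rather than an exporter. With the block the polyamine exporter TPO1 and the exporter AQR1 were lower as well (log2 -0.50, adjusted p = 0.044, against 0.107, and log2 -0.53, adjusted p = 0.0178, against 0.572). ADE17, an enzyme of purine synthesis, averaged 1009 ± 31.9 at 0.25% and 1353 ± 112 at 1% (log2 -0.42, SE 0.08, adjusted p = 0.0183), and was the only one of 22 purine and one-carbon genes called (median -0.13). It was lost without replicate 2 or 3 at 0.25% or replicate 1 or 2 at 1%, with adjusted p from 0.0594 to 0.126.

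The remaining fall was YCR102C, a gene of uncharacterised function named after its values were seen. Its signals of 1.02, 1.13 and 1.23 at 0.25% and 5.34, 5.88 and 13.3 at 1% were close to the floor of 1 (log2 -2.73, SE 0.51, adjusted p = 0.0174). The call did not hold after an offset of 16 was added before the log (adjusted p = 0.12), nor after quantile normalization (0.073), nor without replicate 1 at 0.25% or replicate 2 or 3 at 1% (adjusted p from 0.0599 to 0.117).

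The growth machinery showed no called gene, at a share of 0.954% over all genes tested (2.2% with the block). An empty list is close to that share and is not read as a result about its members. None of 101 ribosome biogenesis genes passed in either fit (median -0.06, range -0.21 to 0.08), none of 126 cytosolic ribosomal protein genes (median -0.04, range -0.27 to 0.17; RPL41A and RPL41B are not in this list) and none of 37 subunits and factors of RNA polymerases I and III (median -0.01). RPL41A, a ribosomal protein gene outside the list and named after its values were seen, had 533, 346 and 322 at 0.25% and 635, 737 and 808 at 1% on a probe set of the shared type. It was lower on every 0.25% array and passed with the block (log2 -0.89, adjusted p = 0.0307, against 0.0859). Amino acid synthesis had none of 67 (median -0.06), and with the block 1 fell, GLT1, glutamate synthase, at 687 ± 135 and 955 ± 54.1 at 0.25% and 1% (log2 -0.49, adjusted p = 0.00519, against 0.0699). With 0.954% of all genes called, 22 of the 46 lists had no called gene. Among them were fatty acid oxidation and peroxisomes, with 13 of 25 genes dim and a median of 0.02 that changed sign under both scalings. Sporulation, stationary phase and mating genes were others, with medians of -0.01, 0.12 and -0.04. Of these 20 of 22, 10 of 16 and 13 of 35 were dim, so the lists can show little. With the block HUG1, a gene of the DNA damage response in the replication list, was lower (log2 -0.52, adjusted p = 0.0152, against 0.0575).

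Some called genes lie beside each other in the genome, by gene order in the RefSeq annotation. MHT1 and MMP1 are direct neighbours on chromosome XII, and both rose by 0.72. HXT7 and HXT3, which moved in opposite directions, lie on chromosome IV with 2 genes between them. GSY1 and IGD1 on chromosome VI, and PHO89 and MAL33 on chromosome II, have 1 gene between them, and all 4 rose. Chance in gene order was not tested.

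The 0.5% cultures lie between the compared levels and show how the change was spread over the steps. The log2 difference of 0.5% from the midpoint of 0.25% and 1% was tested in the same fit, and 0 genes passed (0%); 98 passed at an unadjusted p under 0.05, the smallest adjusted p was 0.999, and 0 passed with the replicate block and 5 with array weights. With 3 arrays a level this does not show that the steps are equal. Values of this test given below, called the midpoint contrast, are 0.25% plus 1% minus 2 times 0.5%. They are negative where 0.5% lay above the midpoint. The 2% arrays had a higher 3' to 5' ratio and a lower mean ribosomal RNA signal than the other levels. How far this bears on the 2% means given here and below was not tested. For HXT1 the means were 59.6 ± 12.5 at 0.25%, 186 ± 7.27 at 0.5%, 746 ± 162 at 1% and 1350 ± 70.0 at 2% (SD, n = 3 each). HXT1 was lower by a similar amount in both steps below 1%, with log2 differences of -1.67 for 0.25% against 0.5% and -1.98 for 0.5% against 1%.

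Of the 5449 genes, 6 passed for 0.25% against 0.5% (0.11%) and 4 for 0.5% against 1% (0.0734%), and 45 of the 52 called genes passed in neither step. HXT1, HXT7 and TMA10 passed in both steps. HXT7 differed by 0.71 in each (adjusted p = 0.0104 for 0.25% against 0.5% and 0.0137 for 0.5% against 1%), with means of 2275 ± 38.8, 1394 ± 90.8, 854 ± 83.0 and 345 ± 50.03 at 0.25%, 0.5%, 1% and 2%. TMA10 differed by 1.12 and 0.96 in these steps, with means of 762 ± 131, 346 ± 13.8, 177 ± 4.87 and 96.6 ± 10.05 from 0.25% to 2%.

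HXT3, ALD4, GSY1 and YCR102C each passed in 1 step. HXT3 averaged 1063 ± 180 at 0.25%, 1784 ± 4.33 at 0.5%, 2402 ± 86.1 at 1% and 2353 ± 198 at 2%, so it passed between 0.25% and 0.5% (log2 -0.76, adjusted p = 0.00604), not between 0.5% and 1% (log2 -0.43, adjusted p = 0.345), and differed by 0.03 between 1% and 2%. Its midpoint contrast was -0.33 (SE 0.18, unadjusted p = 0.087, adjusted p = 0.999), so unequal steps were not shown. ALD4 passed for 0.5% against 1% (log2 0.53, adjusted p = 0.0316) and had 0.43 for 0.25% against 0.5% (adjusted p = 0.125). GSY1 passed for 0.25% against 0.5% (log2 0.65, adjusted p = 0.0376), with 0.48 for 0.5% against 1%. YCR102C passed for 0.25% against 0.5% (log2 -3.21, adjusted p = 0.0177), and its mean was 1.13 ± 0.103 at 0.25%, 10.5 ± 2.04 at 0.5% and 8.17 ± 4.45 at 1%, so its steps ran in opposite directions; all these signals are dim.

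HXT2 was nearly level at the low end, with means of 2848 ± 68.1 at 0.25%, 2670 ± 107 at 0.5%, 2113 ± 80.2 at 1% and 1210 ± 103 at 2%. The midpoint contrast of HXT2 was -0.24 (SE 0.13, adjusted p = 0.999). MIG3 had 27.6 ± 8.32, 34.3 ± 9.45, 63.7 ± 15.05 and 116 ± 18.1 from 0.25% to 2%, with the 0.25% and 0.5% arrays overlapping. ADR1 and MTH1 were highest at 0.25% and lowest at 2%, with 170 ± 34.8, 102 ± 14.4, 73.6 ± 1.29 and 45.0 ± 7.75 for ADR1 and 202 ± 66.5, 116 ± 4.11, 89.0 ± 29.3 and 46.1 ± 6.92 for MTH1. HAP4 averaged 150 ± 37.9, 105 ± 12.3, 71.9 ± 6.23 and 70.7 ± 14.4, so its 1% and 2% means differed by less than the spread of their arrays.

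**Figure D4:**
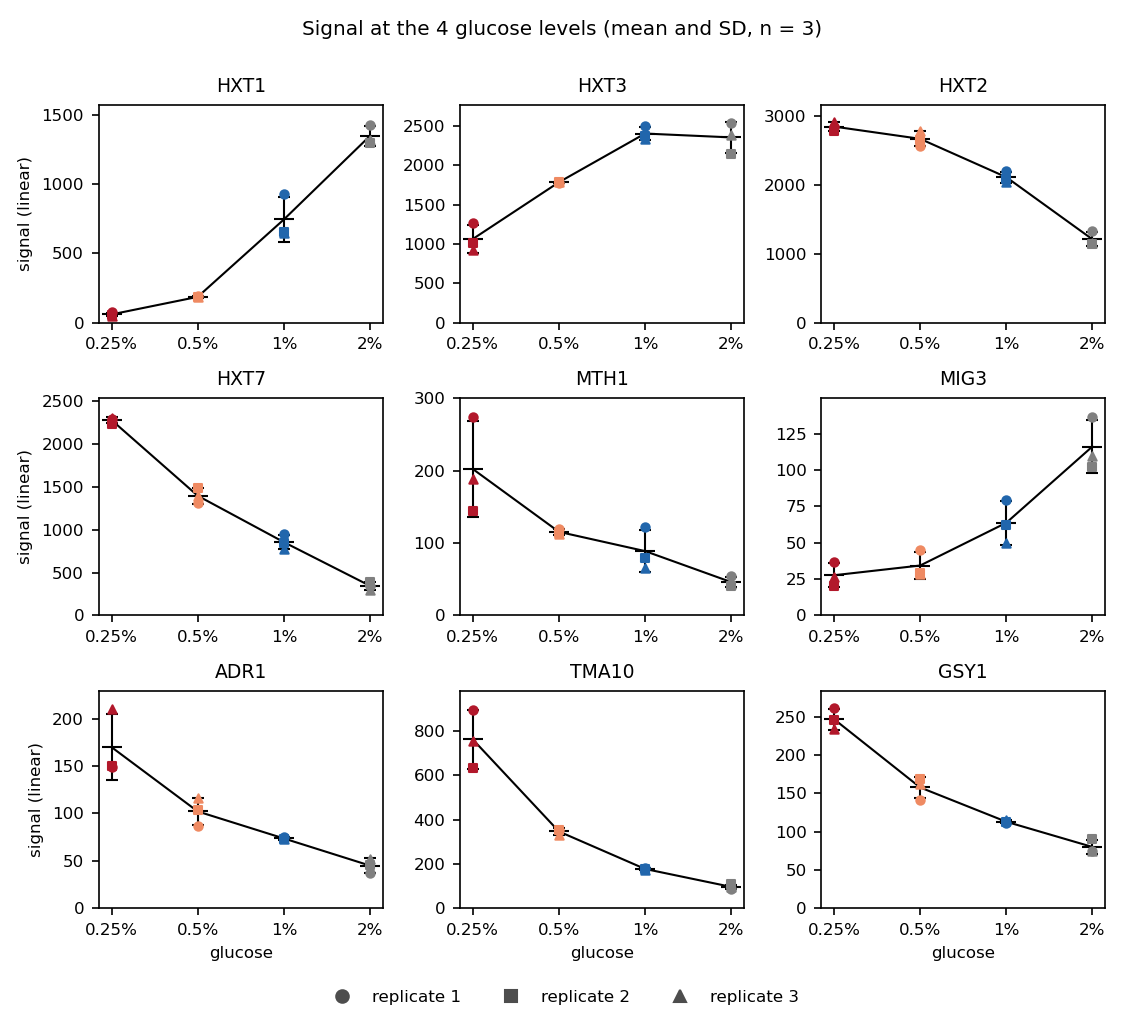
Signal (linear scale, vertical axis) of 9 genes at 0.25%, 0.5%, 1% and 2% glucose (horizontal axis), with a marker for each replicate and black lines and bars for the mean and SD of 3 arrays. HXT1, HXT3 and MIG3 are lowest at 0.25%, and HXT2, HXT7, MTH1, ADR1, TMA10 and GSY1 are highest there.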

How the data were processed

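As deposited, the files hold intensities, with 1 linear signal for each probe set of a one-colour Affymetrix array, hybridised with total RNA per the labels' protocols. A name for the summarising program was not given in the sources used here. On each array the trimmed mean (2% left out at each end) is 500 in the deposited values, so the authors had scaled them already and any change in the total amount of RNA is lost. Of 10928 probe sets, 5028 were at 0 on all arrays; 5498 of the others were named for 1 yeast gene through the platform table, and the brightest probe set stood for each of the 47 genes with several, which left 5449 genes.

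Signals were taken to log2 with a floor of 1, with no filter on dim genes, and fitted in limma 3.58.1 (R 4.3.3) with a mean for each glucose level over all 12 arrays and an intensity trend in the variance prior. The contrasts were 0.25% minus 1%, both 2-fold steps between them, and 0.25% plus 1% minus 2 times 0.5%. P-values were two-sided and adjusted by Benjamini-Hochberg over all genes. The number of arrays limits the precision. Figures were drawn with matplotlib 3.10.9. The fit was run on simulated data with independent noise on each array. Those data do not hold the pairing described next and are not used as support.

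Titles number the arrays of each level 1 to 3. Deviations from the level means correlated across genes with r of 0.41, 0.22 and 0.33 between the 0.25% and 1% arrays of replicates 1, 2 and 3. Each was above the limit of 0.1, and on that ground the numbers were taken to pair the arrays. Between different numbers r ran from -0.33 to -0.04. Centring on the level means pushes these values below 0, so they are not separate support for pairing. The labels do not say what a number shares. The fit without the block is the main one, and the blocked value is given beside named genes whose call it changes.

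The comparison, the 46 gene lists and the 40 genes of a glucose signalling panel were chosen with earlier results of these data known, so list counts are descriptions; 1245 of the 1301 listed entries matched a tested gene. Named genes are the 15 largest rises and falls called with a signal above percentile 25 at the higher level, up to 4 members of each list, and the panel; any other is said to be named after its values were seen, or passed in a list. Gene functions are background knowledge. Alternatives were an offset of 16, quantile normalization and median scaling, dim filters at percentiles 25 and 50, other uses of probe sets, the replicate block, fewer arrays, array weights, no intensity trend, and leaving out each array in turn. No per-sample column was left unused, and no sequence or coordinate is reported.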

Additional observations from a re-analysis of the deposited data

Results flagged for a closer look

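Probe sets above 0 with no listed gene, 218 in all and outside the tested genes, were fitted the same way, and 3 were higher at 0.25% than at 1%. Of the named genes 0.789% were called higher. The probe set with the largest difference averaged 751 ± 90.9 at 0.25% and 416 ± 35.1 at 1% (SD, n = 3 each), a log2 difference of 0.85 (limma adjusted p = 0.00926). The next averaged 112 ± 6.01 at 0.25% and 70.0 ± 3.77 at 1%, a log2 difference of 0.68 (adjusted p = 0.0377). The third averaged 377 ± 22.4 at 0.25% and 268 ± 12.3 at 1%, a log2 difference of 0.49 (adjusted p = 0.0377). They are listed here because they carry a signal that the comparison of named genes leaves out; their transcripts are unnamed here.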

How the results depend on the processing

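The 52 called genes became 25 in a fit of the 6 compared arrays alone (22 higher, 3 lower) and 114 with array weights (97 higher, 17 lower). A dim filter at percentile 50 left 2724 genes to test and gave 24 calls (18 higher), all among the 52. It ended 2 calls, and the rest of the 52 were not tested under it. The replicate block gave 120 (96 higher, 24 lower) and, with the 6 arrays alone, 247 (199 higher, 48 lower); all 52 were among both, so pairing ended no call. Leaving out 1 array at a time gave between 20 and 57 genes, with 17 to 48 higher and 3 to 10 lower. It was 30 and 26 when replicate 1 or replicate 3 of the 0.25% level was left out, and 20 and 32 when replicate 2 or replicate 3 of the 1% level was. The falls numbered 5 and 3 when replicate 1 or replicate 2 at 1% was left out. The other settings gave from 38 to 60 genes. No direction was reversed in any alternative. The midpoint test had 0 genes in each alternative except array weights, where 5 passed (FIT2, MST27, RGI2, SPO11 and YCR102C) and replicate 2 at 0.5% had a weight of 6.90; no midpoint test is possible with 6 arrays.

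Of the 52 genes, 17 passed in every alternative in which they were tested: ADR1, ALD4, DDR2, GLC3, GPH1, GSC2, GSY1, GUT2, HSP12, HXK1, HXT1, HXT3, HXT7, IGD1, MMP1, PHO89 and TMA10. Of these, 10 were tested and passed in all 25 alternatives. ADR1 and IGD1 were not tested under either dim filter, and DDR2, GLC3, GPH1, GSY1 and GUT2 were not tested under the filter at percentile 50. The 6 arrays alone, without the block, ended 27 calls and a fit without the intensity trend 14, among them MTH1 and MIG3. MET2 and TIR1 missed the threshold only with the 6 arrays alone and without the block. Dim signals limit the low genes: ADR1, HAP4, CAT8, MTH1 and MIG3 are not tested under either dim filter. The median log2 difference of all genes was 0.01 as deposited and -0.01 under quantile normalization and median scaling.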

Other observations

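Called genes that stood in none of the lists, named after their values were seen, add a few functions. RPM2, the protein of mitochondrial RNase P, had 289, 317 and 259 at 0.25% and 200, 175 and 148 at 1% (log2 0.73, SE 0.16, adjusted p = 0.0459). ATO2, a putative ammonia and acetate carrier, was dim, with 32.2, 24.9 and 31.4 at 0.25% and 15.6, 12.8 and 12.7 at 1% (log2 1.10, SE 0.24, adjusted p = 0.0389). YDL124W, an aldo-keto reductase, averaged 1767 ± 128 at 0.25% and 1313 ± 106 at 1% (log2 0.43, SE 0.09, adjusted p = 0.0459), and YMR196W, of unknown function, 220 ± 0.966 at 0.25% and 151 ± 6.35 at 1% (log2 0.54, SE 0.11, adjusted p = 0.0193). None of these 4 overlapped between the levels, and each lost its call when single arrays were left out, without as many as 10 of the 12 for ATO2. BNS1, linked to the exit from mitosis and dim here, had 121, 117 and 119.9 at 0.25% and 82.5, 83.7 and 85.0 at 1% (log2 0.51, SE 0.10, adjusted p = 0.0251; up to 0.127 when single arrays were left out). Among 5 Ty retrotransposon genes, whose copies share sequence, 1 rose: YBL100W-A averaged 646 ± 31.9 at 0.25% and 395 ± 59.7 at 1% (log2 0.72, adjusted p = 0.0183). The dim YLR157W-E, of unknown function and in no list, averaged 53.0 ± 10.5 at 0.25% and 26.7 ± 0.643 at 1% (log2 0.97, adjusted p = 0.0416). Without replicate 2 at 1% YBL100W-A and YLR157W-E were at adjusted p = 0.126 and 0.192. The called probe set of YLR157W-E is of the shared type. Its other probe set did not pass, but had a mean signal of 1.52, close to the floor, and can show little.

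Further genes, also named after their values were seen, passed only in the paired fit. ISF1, a serine-rich protein linked to respiratory growth and dim here, had 153, 31.4 and 49.4 at 0.25% and 20.0, 17.0 and 14.7 at 1% (log2 1.86, adjusted p = 0.00356 with the block, against 0.0593). RGI1, a protein of energy metabolism under respiration, had 969, 278 and 389 at 0.25% and 212, 193 and 176 at 1% (log2 1.29, adjusted p = 0.019, against 0.0685). In both, replicate 1 at 0.25% stood well above its group. MPC3, the subunit of the mitochondrial pyruvate carrier used in respiration, had 164, 62.3 and 87.3 at 0.25% and 74.1, 50.2 and 29.9 at 1%, so its groups overlapped (log2 1.00, adjusted p = 0.0168, against 0.355). PRM7, a pheromone-regulated gene, was lower within each replicate number, with 311, 160 and 104 at 0.25% and 512, 280 and 210 at 1% (log2 -0.85, adjusted p = 0.00113, against 0.773).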
